A study of Mus musculus with 8 samples.

Results

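Foxp2 lies on the plus strand of mouse chromosome 6, with a gene body at chr6:14901349-15441977 in GRCm38, and is described here through the H3K27me3 regions that overlap the body or the 100 kb on either side of it. This window, chr6:14801349-15541977, held 10 of the 13585 regions in the deposited table. The gene was chosen by these same H3K27me3 differences, since regions inside it were among the lowest in MommeD43 relative to WT in the whole table, so the differences below are a description and none is tested. The mark was mapped by sequencing of immunoprecipitated chromatin (ChIP-seq). The cells were female primary neural stem cells (NSCs) derived from E14.5 cortex of the C57BL/6J strain and kept for fewer than 10 passages. All cells carried a GFP fusion of the endogenous SMCHD1 protein. The WT group had the genotype Smchd1GFP+/+, and the other group was homozygous for the MommeD43 missense variant of the same tagged allele (Smchd1GFPMommeD43/MommeD43), each with 3 ChIP libraries from separate lines and 1 whole cell extract (WCE) library. For each region the table holds a single log2 value per genotype, which the authors averaged from 3 libraries, and no SD or n accompanies it. A lower pooled value does not tell apart fewer cells that carry the mark from less of the mark per cell. The paper itself regards ChIP-seq as poorly suited to comparing amounts of a histone mark between genotypes.

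FOXP2 is a forkhead transcription factor that mainly represses its targets and pairs with its relatives FOXP1 and FOXP4. In the developing brain it is known from deep cortical layers, the striatum and the cerebellum, and damaging variants of the human gene impair speech. H3K27me3 is placed by Polycomb repressive complex 2 (PRC2) on silent developmental genes, often starting at CpG-rich promoters and spreading over the gene body, and SMCHD1 is a chromatin protein thought to shield its targets from other chromatin regulators. The labelled cell type was checked through the mark itself: among genes that neural stem cells use, Sox2, Vim, Fabp7, Slc1a3 and Olig2 overlapped no region, as did 2 of 10 regulators of other lineages (Gata1 and Myf5). The neural stem cell genes Nes, Pax6, Hes1, Hes5 and Msi1 overlapped a region and had 33.4 to 78.7 normalized counts per kilobase in WT. The 8 other-lineage regulators with a region had 33.2 to 219.8, so the groups overlapped.

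The 10 regions are numbered from 5′ to 3′. Region 1, chr6:14889201-14909500, holds the most 5′ transcript starts of the gene and extends 12148 bp upstream of the body. Region 2, chr6:15174351-15206200, holds 10 transcript starts, 9 of them protein-coding, among them that of Foxp2-201, the transcript used here to number exons. The largest stretch without a region, 264850 bp, separates both promoter regions. Region 3 (chr6:15209751-15217750), region 6 (chr6:15301551-15307900), region 8 (chr6:15342651-15348250) and region 9 (chr6:15381501-15386800) are intronic. Region 4 (chr6:15250701-15260950) and region 7 (chr6:15315801-15340150) each hold the start of 1 transcript that is not annotated as protein-coding. Region 5, chr6:15277101-15299800, contains exon 3, and region 10, chr6:15392451-15426550, contains exons 7 to 16. No region lay wholly in a flank. The regions covered 29.0% of the gene body, with 18 of its 20 annotated transcript starts and 13 of the 17 exons of Foxp2-201, and left out exons 4 to 6 and the last exon with the end of the gene.

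The DNA under the mark differs along the gene, and 4 stretches are shown for that reason: the first 2 come from regions 1 and 10, which are among those with the smallest differences, and the others from the internal promoter region and from the region with the lowest MommeD43 value relative to WT. Each is the 200-base window with the most CpG dinucleotides in its region, outside repeats, exons and the stretch from 250 bases before to 50 after each transcript start. They are from the plus strand of GRCm38.p6, with CpG dinucleotides in capitals. The distal promoter window had 18 CpGs and a GC content of 64.5%, the 3′ window 8 and 49.5%, the internal promoter window 6 and 45%, and the window of region 5 had 4 and 35.5%. The order of these 4 windows does not hold for the whole locus: region 9, with no window shown, had the lowest CpG density of the 10 regions, 3.96 per kilobase, and a difference of -0.95.
Region 1 (chr6:14901768-14901967): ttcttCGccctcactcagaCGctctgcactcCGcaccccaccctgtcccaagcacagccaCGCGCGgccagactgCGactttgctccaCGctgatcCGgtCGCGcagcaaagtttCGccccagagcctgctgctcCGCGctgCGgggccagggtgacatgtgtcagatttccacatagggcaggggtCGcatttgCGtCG
Region 10 (chr6:15410236-15410435): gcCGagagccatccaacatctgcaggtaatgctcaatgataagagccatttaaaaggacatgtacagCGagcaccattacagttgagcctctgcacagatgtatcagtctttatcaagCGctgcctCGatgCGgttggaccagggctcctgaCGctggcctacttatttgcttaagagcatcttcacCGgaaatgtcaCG
Region 2 (chr6:15186199-15186398): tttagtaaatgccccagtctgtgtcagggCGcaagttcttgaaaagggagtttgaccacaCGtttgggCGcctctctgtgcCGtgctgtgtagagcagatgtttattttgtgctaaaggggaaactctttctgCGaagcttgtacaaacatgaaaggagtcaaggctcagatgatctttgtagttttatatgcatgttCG
Region 5 (chr6:15280153-15280352): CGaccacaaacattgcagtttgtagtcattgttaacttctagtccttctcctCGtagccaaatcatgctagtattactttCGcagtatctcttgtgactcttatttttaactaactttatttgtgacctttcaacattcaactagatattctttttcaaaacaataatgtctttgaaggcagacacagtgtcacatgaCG

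All 10 regions of the locus had a lower H3K27me3 value in MommeD43 than in WT, as did 39.8% of all regions in the table, and the lowest differences were those of regions 2 to 8. The median difference, MommeD43 minus WT, was -2.31 on the log2 scale over the 10 regions, against 0.11 over all regions of the table. At least 1 log2 unit separated the genotypes in 8 of the 10 regions, and at least 2 in 6, where 3.03% and 0.317% of all regions were lower by as much. All 10 counting intervals lay below 0, as did those of 23.4% of all regions. These intervals rest on reads recovered from the pooled values and cover counting error only, with the variation between cell lines left out. Lengths run from 5300 to 34100 bp, so levels are compared below per kilobase of region.

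**Figure D1:**
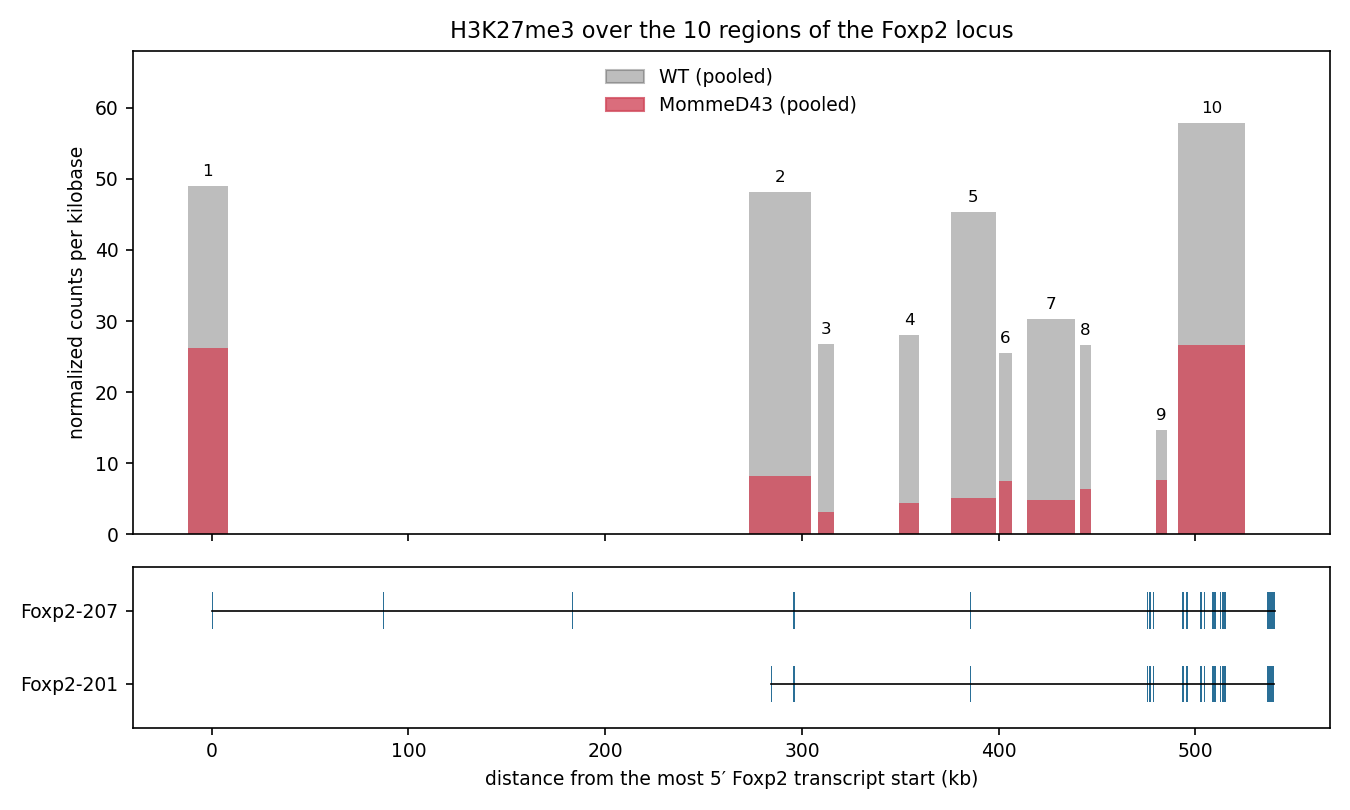
H3K27me3 in normalized counts per kilobase (y axis) in the 10 numbered regions, drawn at their position relative to the most 5′ Foxp2 transcript start (x axis, kb), with WT in grey and MommeD43 in red, both as pooled means from a baseline of 0. The lower panel gives the exons of Foxp2-207 and Foxp2-201 as bars. Regions 2 to 8 keep 3.20 to 8.18 normalized counts per kilobase in MommeD43, region 9 keeps 7.62, and regions 1 and 10 keep 26.2 and 26.7.

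The distal promoter, region 1, had a pooled log2 value of 9.96 in WT and 9.06 in MommeD43, a difference of -0.90 with a counting error (SE) of 0.08, the smallest error that the reads allow. Per kilobase, WT had 48.96 normalized counts and MommeD43 26.2. As deposited, region 1 had the smallest difference of the 10, and it is also the region richest in CpG dinucleotides. It has 14.8 per kilobase, where the autosomal median was 12.3. With the GC trend removed, region 1 differed by -0.51 and was passed by region 9 at 0.07 and region 10 at -0.10.

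The internal promoter, region 2, started from nearly the same level and ended far lower. Its log2 value was 10.58 in WT and 8.03 in MommeD43, a difference of -2.56 (SE 0.09) or 5.88-fold. Its WT density of 48.1 normalized counts per kilobase was close to that of the distal promoter, whereas in MommeD43 it was 8.18. The counting interval of the difference was -1.05 to -0.75 in region 1 and -2.74 to -2.38 in region 2.

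Region 5, which surrounds coding exon 3, had the lowest difference in the locus and the fifth lowest of the whole table. The log2 value was 10.01 in WT and 6.85 in MommeD43, a difference of -3.16 (SE 0.13), or 8.91-fold. Read as a geometric mean per library, this was 315.0 reads in WT and 43.9 in MommeD43. This exon region was almost as densely marked as the promoters in WT, with 45.4 normalized counts per kilobase where MommeD43 had 5.09.

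Among the intronic regions, region 3 lies just downstream of the internal promoter region and had the lowest value of the locus in MommeD43. Its log2 value was 7.74 in WT and 4.68 in MommeD43, a difference of -3.06 (SE 0.29), with 65.5 reads per library in WT and 9.72 in MommeD43. Region 4 and region 7, which are not intronic but hold a transcript start each, differed by -2.68 (SE 0.22) and -2.63 (SE 0.14). Region 7 also holds 1178 bp of annotated exon, with 75 bp of coding sequence. The small intronic regions 6 and 8 differed by -1.78 (SE 0.23) and -2.06 (SE 0.26). Regions 3, 4, 6, 7 and 8 were modestly marked in WT, at 25.5 to 30.3 normalized counts per kilobase.

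The differences were smaller in both regions at the 3′ end. Region 9, an intronic region with little mark in either genotype, had log2 values of 6.28 in WT and 5.34 in MommeD43 and differed by -0.95 (SE 0.27). Region 10, which carries most of the coding exons, had the highest density of the locus, 57.8 normalized counts per kilobase for WT against 26.7 for MommeD43. Its log2 value was 10.94 in WT and 9.83 in MommeD43, a difference of -1.12 (SE 0.06). Between region 8 and region 9, across 33250 bp without a region, the difference moved from -2.06 to -0.95.

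The ranges of the annotation classes overlapped. The 4 regions with a transcript start ranged from -2.68 to -0.90, the 2 regions with exons but no start from -3.16 to -1.12, and the 4 intronic regions from -3.06 to -0.95. Regions 2 to 8, consecutive over 173.9 kb and grouped here by their values, so that the grouping fixes the order, ranged from -3.16 to -1.78, and regions 1, 9 and 10 from -1.12 to -0.90. The counting intervals of region 6, -2.23 to -1.33, and region 9, -1.48 to -0.41, overlapped.

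**Figure D2:**
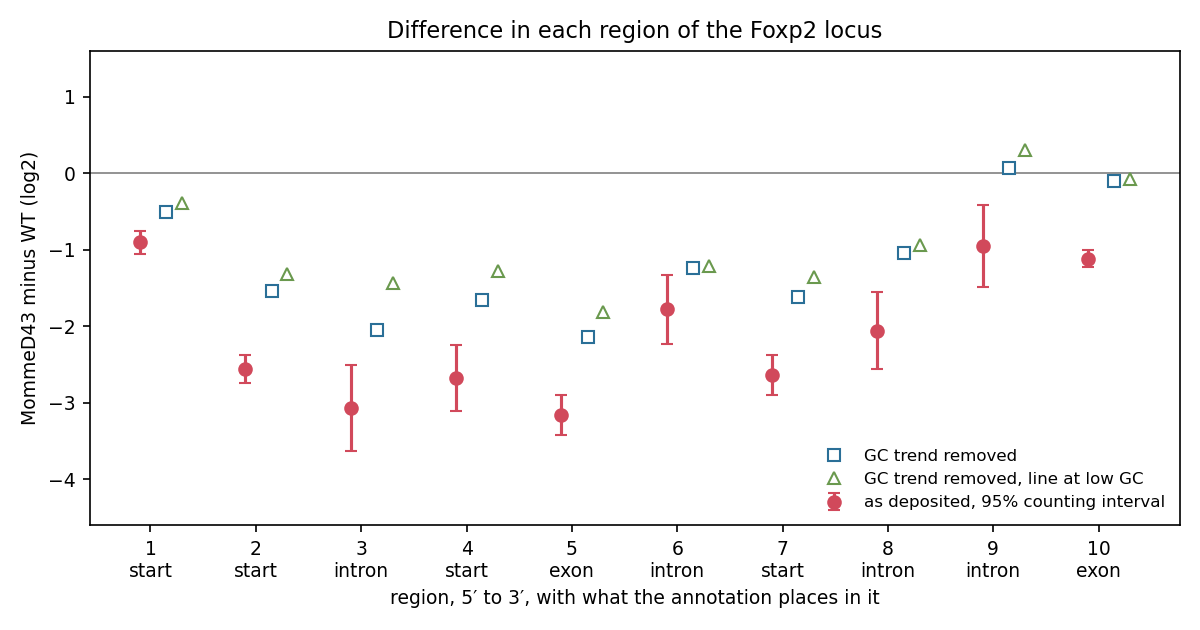
MommeD43 minus WT on the log2 scale (y axis) in each region, 5′ to 3′ (x axis), as deposited (red points with 95% counting intervals), with the trend with GC content removed (blue squares), and with that trend continued as a line at low GC content (green triangles). Regions 2 to 8 lie below regions 1, 9 and 10 in all 3 versions, and region 9 crosses 0 in the corrected ones.

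Shares of the locus total do not depend on the scaling between the genotypes. Regions 2 to 8 held 57.5% of the normalized counts of the locus in WT and 30.4% in MommeD43. Region 5 alone went from 14.4% to 5.42%, and the internal promoter from 21.4% to 12.2%. The distal promoter went the other way, from 13.9% to 24.98%, and the 3′ exon region from 27.5% to 42.7%. The sums do depend on it, and scaling to the total of the regions would lower each by a further 0.24 on the log2 scale. As deposited, summed counts of regions 2 to 8 were 6.34-fold lower in MommeD43, those of regions 1, 9 and 10 were 2.05-fold lower, and those of the whole locus 3.36-fold lower.

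Set against other autosomal regions, the locus had both high and low densities in WT and lay low in MommeD43. By density in WT, regions 1, 2, 5 and 10 stood at percentiles 76.7, 75.9, 71.8 and 84.2 of all autosomal regions, and the other 6 were below the autosomal median. Regions 3, 4, 6, 7 and 8 stood at percentiles 17.0 to 31.3 in WT, and region 9 was already at 1.85. In MommeD43 all 10 were below it. Regions 1 and 10 stood at percentiles 19.6 and 20.7 there, and regions 2 to 9 between 0.085 and 0.67. The regions come from the peaks of both genotypes, so a region with a peak in WT alone is kept. The locus was also chosen for low MommeD43 values relative to WT, so low percentiles in MommeD43 follow in part from the choice.

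Because the mean of 3 log2 counts fixes the product of the 3 counts, the pooled value also says something of how reads can be spread over libraries. In region 3 the MommeD43 product was 918, and at the pooled WT value each MommeD43 library would have held 81.3 reads. With 2 libraries of equal depth at that value, the third would hold 0.139 reads in region 3, 0.415 in region 4, 0.552 in region 5 and 0.783 in region 8, and 1.17 to 2.86 in regions 2, 6 and 7. It would hold 57.8 reads in region 1, 4.12 in region 9 and 73.5 in region 10. This takes the pooled WT value as given, so a single high WT library is not limited by it, and the depths of single libraries were not analysed here. The part of single libraries in the differences was not tested.

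Base composition did not order the differences along the locus: regions 2 and 9 had a GC content of 35.9% and 35.8% and differed by -2.56 and -0.95. Across autosomal regions the difference was lower where GC content was lower, and 8 of the 10 Foxp2 regions fell within the lowest of 40 equally filled GC bins, at most 38.2%. The locus median was 35.8% and the autosomal median 46.3%. The trend with GC content was removed as a running median over autosomal regions outside the locus. Regions 2 to 8 then differed by -2.14 to -1.04, region 1 by -0.51, region 10 by -0.10 and region 9 by 0.07. The count of regions lower by at least 1 was then 7 of 10, against 0.707% of all regions. The running median was held flat below its lowest bin, although autosomal differences kept going down there. With a finer trend continued as a straight line, an alternative added after the data were seen, regions 2 to 8 differed by -1.81 to -0.94, and 6 of the 10 were lower by at least 1, against 0.633% of all regions. Whether base composition plays a part in the deficit was not tested.

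Regions of like GC content, in bands of 1 percentage point drawn after the values were seen, are set beside the locus here. Since the locus was chosen for its low differences, that few others are as low follows largely from the choice. The bands match GC content alone. From 35 to 36%, the other regions had medians of 49.0 WT reads per library and 6800 bp, where region 2 had 469.1 reads and 31850 bp. Of 50 other autosomal regions with a GC content from 35 to 36%, the median difference was -1.22 and the lowest -2.33, while regions 2 and 7 in that range differed by -2.56 and -2.63. Of 24 others from 34 to 35%, none was as low as region 5 and 1 was as low as region 4. From 39 to 40%, 2 of 306 were as low as region 6, and from 36 to 37%, 1 of 76 was as low as region 8. Region 3 is the most AT-rich member, with a GC content of 33.0%, and 2 of the 6 other autosomal regions from 32 to 33% were as low. Regions 1, 9 and 10 were matched or passed by 55 of 371, 30 of 50 and 34 of 76 regions of similar GC content.

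**Figure D3:**
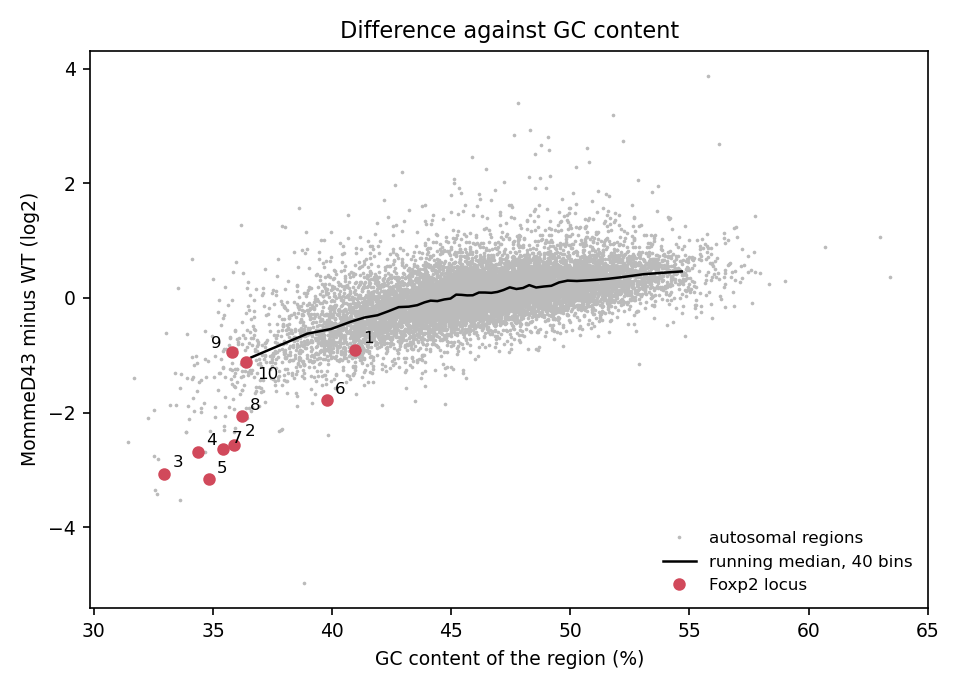
MommeD43 minus WT on the log2 scale (y axis) against GC content in percent (x axis) for autosomal regions (grey), with their running median over 40 bins (black line) and the numbered Foxp2 regions (red). Regions 2, 4, 5, 6, 7 and 8 lie at the lower edge of the grey cloud, and regions 9 and 10 lie close to the running median.

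Lower values were also found outside the window, none of them as low as regions 2 to 8 among the 10 nearest regions on each side, though several were lower than regions 1, 9 and 10. The nearest region upstream, 1059 kb away at Gpr85, a brain-expressed orphan receptor gene, differed by -1.45, and the nearest downstream, 1276 kb away, by -1.36. The outermost regions inside the window, region 1 and region 10, differed by -0.90 and -1.12. All 10 nearest regions downstream were lower in MommeD43, from -1.55 to -0.03, and 6 of the 10 nearest upstream, with a range from -1.45 to 0.64, where 39.8% of all regions were lower. With the GC trend removed, the downstream regions ran from -0.56 to -0.00079 and the upstream ones from -0.93 to 0.73, all above regions 2 to 8 of Foxp2. The closest protein-coding genes, Ppp1r3a and 2610001J05Rik on the 5′ side and Mdfic and Tfec on the 3′ side, overlapped no region with their gene bodies.

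**Figure D4:**
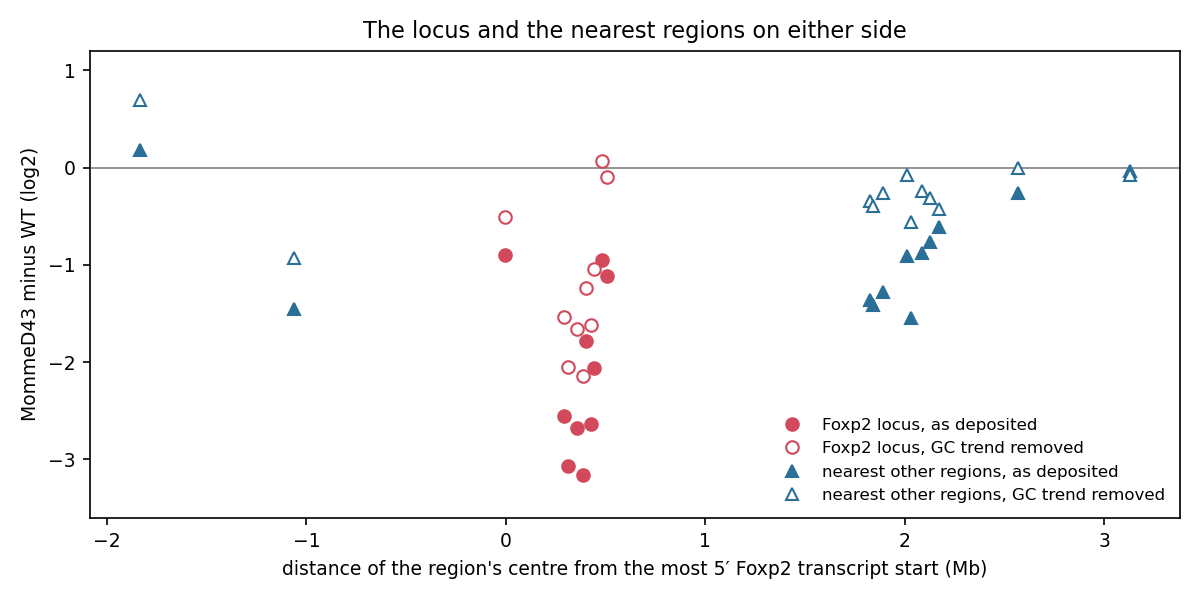
MommeD43 minus WT on the log2 scale (y axis) for the Foxp2 regions (red circles) and those of the 20 nearest regions that fall in the plotted range (blue triangles), by distance of the region's centre from the most 5′ Foxp2 start (x axis, Mb), as deposited (filled) and with the GC trend removed (open). The open triangles lie between -0.93 and 0.70, above the 7 lowest open circles.

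Long runs of lower regions were few. On autosomes, 265 runs of consecutive regions were lower by at least 1, where a single region counts as a run. Of these, 2 were 7 regions long: regions 2 to 8 of Foxp2, and chr16:37127451-37402450 over Stxbp5l, which encodes a syntaxin-binding tomosyn protein. At a threshold of 2, the Foxp2 run of regions 2 to 5 was the longest, with 4 regions. With the GC trend removed, the 7 Foxp2 regions formed the longest run lower by at least 1, and the Stxbp5l run had 3. Because Foxp2 was chosen by these differences, its place among the runs follows largely from the choice. With the trend continued as a line the Foxp2 run had 6 regions, and the next longest run, which was not that of Stxbp5l, had 2.

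Gene windows were drawn in the same way for the 3097 autosomal protein-coding genes with at least 5 regions. Foxp2 had the lowest median difference of these windows, as its choice implies, and the quartiles over all windows were 0.01 and 0.34. The 5 windows with the nearest medians that share no region with it or with each other were those of Stxbp5l, at -2.02 over 8 regions, Nr1h5, at -1.37 over 5, Tfec, at -1.28 over 5, Erbb4, a neuregulin receptor gene, at -1.28 over 11, and Ccdc73, at -1.09 over 6. The 5 regions of the Tfec window are among the 10 nearest downstream of Foxp2 described above. The likeness is the gap between medians over the 2 pooled columns, from 0.29 for Stxbp5l to 1.21 for Ccdc73. With the GC trend removed, the medians were -1.39 for Foxp2, -1.0004 for Stxbp5l and -0.53 to -0.26 for the others. The Stxbp5l window also had 7 low regions and 1 outer region, chr16:37460001-37478800, that differed by -0.11. Its densest region in WT, chr16:37359201-37402450, held 65.4 normalized counts per kilobase for WT and 15.4 for MommeD43. In the Erbb4 window, 7 of the 11 regions were lower by at least 1. Its lowest region differed by -3.34, which was below every Foxp2 region.

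**Figure D5:**
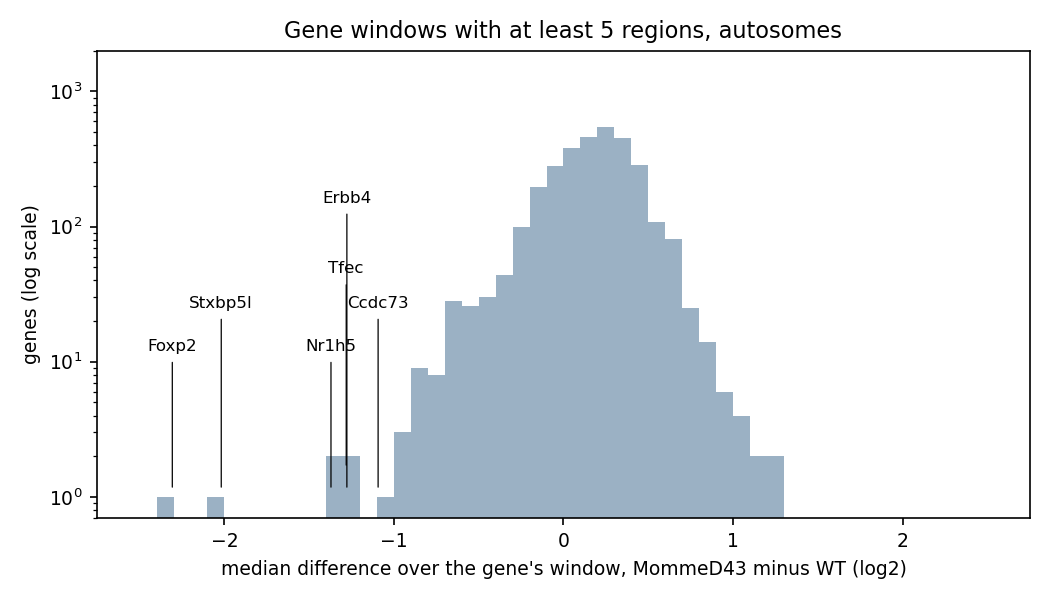
Number of autosomal genes (y axis, log scale) by the median difference over their window, MommeD43 minus WT on the log2 scale (x axis), for 3097 genes with at least 5 regions. Foxp2 at -2.31 and Stxbp5l at -2.02 stand to the left of the main group, with Nr1h5, Tfec, Erbb4 and Ccdc73 between -1.37 and -1.09.

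At the other FOXP genes with a region, the mark as deposited was not lower in MommeD43. Scaling to the total of the regions would lower each difference by 0.24, which takes the smallest one, at Foxp1, below 0. Foxp1, whose product pairs with FOXP2 in the brain, overlapped 3 regions that differed by 0.04 to 0.60, and the one with most of the mark held 89.4 normalized counts per kilobase for WT and 110.9 for MommeD43. Foxp4 overlapped 3 regions that differed by 0.44 to 1.78, and the one with most of the mark held 23.8 normalized counts per kilobase for WT and 81.8 for MommeD43. With the GC trend removed, the median over the regions was 0.26 for Foxp1 and 0.14 for Foxp4. Foxp3, the X-linked factor of regulatory T cells, overlapped none.

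Genes known as targets or partners of FOXP2 were unevenly marked. Of 9 such genes, Cntnap2, Mef2c, Disc1 and Ctbp1 overlapped no region, and the other 5 overlapped 1 each. None of these 5 regions was lower by at least 1, where 3.03% of all regions were, so the count says nothing particular about these genes. Met, a receptor tyrosine kinase gene on the same chromosome, differed by -0.26 (SE 0.05), Vldlr, a reelin receptor gene, by -0.21 (SE 0.15) and Tbr1, a deep-layer factor that binds FOXP2, by -0.03 (SE 0.02). Plaur differed by 0.44 (SE 0.18), and the X-linked Srpx2 by 1.26 (SE 0.06). With the GC trend removed, Met was at -0.00079, Vldlr at -0.51, Tbr1 at 0.40, Plaur at 0.05 and Srpx2 at 1.61, so Tbr1 turned in sign. Of 7 transcription factors of deep-layer cortical neurons, 5 overlapped 9 regions in all, of which none was lower by at least 1, again beside 3.03% of all regions. The lowest values were those of Bcl11b, whose 3 regions differed by -0.66 to -0.34, with a median of -0.64, or -0.94 after removal of the GC trend.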

How the data were processed

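H3K27me3 ChIP-seq libraries of 8 samples in 4 groups underlie the table. Per the study's methods and the submitters' processing notes, reads were trimmed (Trim Galore 0.4.4), aligned with Bowtie2 2.3.4.1 to GRCm38.p6, extended by 150 bp and counted in SeqMonk. Peaks were called on merged replicates against WCE, widened by 2.5 kb and merged within 1 kb. The labels describe micrococcal nuclease digestion and the methods shearing, so the fragmentation is uncertain. The deposited values are log2 counts scaled by the authors to total library size and averaged over the libraries of a genotype, neither divided by length nor corrected for WCE.

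The antilog of 3 times a value is a whole multiple of 1 constant per column: among products under 30000, whole numbers (tolerance 0.1) came out for 1138 of 1139 values of WT and 681 of 684 of MommeD43, with the remaining 3 whole after division by powers of 0.9, which stands for a count of 0. A single read equals 3.27 normalized counts (WT) or 2.63 (MommeD43), and regions had a median of 100.1 and 129.96 reads per library. The smallest counting error assumes Poisson counts spread evenly over 3 libraries. The 95% intervals cover counting error only, and without molecular identifiers reads may repeat a molecule.

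The gene, lists and classes were chosen with earlier results of these data known, and no test was run. All regions of the locus are named, with the 5 gene windows nearest in median and the gene lists, of which 1 gene is not reported here. Annotation was GENCODE M21 on GRCm38, and sequences were read from the GRCm38.p6 genome. Foxp2 was not matched in the RefSeq promoter table. Scripts ran under Python 3.11.15 (numpy 2.4.6, pandas 2.3.3, matplotlib 3.10.9) and were tested on simulated data.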

Additional observations from a re-analysis of the deposited data

How the results depend on the processing

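No paired analysis was possible because each genotype has a single pooled column, and leaving out each replicate could not be run for the same reason. A region without replicates was judged by its 95% counting interval, and medians by the median interval of their members. The locus median of -2.31 was -1.39 once the GC trend was taken out, with or without the density trend, and -1.25 with the finer GC trends (200 bins, flat or as a line at low GC content, added after the data were seen). For regions with a transcript start, with exons and with introns alone, the medians of -2.60, -2.14 and -1.92 were -1.58, -1.12 and -1.14 after removal of the GC trend, -1.58, -1.09 and -1.15 with the density trend removed as well, and -1.30, -0.94 and -1.08 with both finer GC trends. Scaling to the total of the regions lowers every difference by 0.24 and gave -2.84 and -2.38 for starts and exons. Region 9 reversed to 0.070, 0.065, 0.30 and 0.30 under the 4 GC removals, and the cause was not tested. The 8 regions lower by at least 1 were 5 of the 6 left at a mean count of 50, which leaves out weak regions, 10 with scaling to the total, 9 with scaling to the autosomal median and 6 to 7 under the GC removals. Over the whole table of 13585 regions, the 412 lower and 827 higher regions numbered 779 and 491 when scaled to the total. They numbered 506 and 710 when scaled to the autosomal median, and 43 and 37 at a threshold of 2. At a mean count of 50, where fewer regions are kept, they numbered 209 and 542. Lower and higher regions numbered 96 and 1135 with the GC trend removed, 100 and 1106 with the density trend as well, and 89 and 1157 or 86 and 1161 with the finer trends. The gene body alone or with 250 kb each side held the same 10 regions. Depth limits the small regions: 9.72 to 17.9 reads per library lay behind the MommeD43 values of regions 3, 4, 6, 8 and 9.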
